A study of Mus musculus with 12 samples.

Results

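This account concerns 10 genes of antigen presentation by major histocompatibility complex (MHC) class I in cultured mouse lung endothelial cells (MLECs). They were picked by name, with no measured value in the rule but with earlier results of these data known, and all 10 were found among the 28689 genes of the deposited table. H2-K1 and H2-D1 encode the classical class I heavy chains, and B2m encodes beta-2 microglobulin, the light chain that every class I molecule needs to reach the cell surface. Tap1 and Tap2 form the peptide transporter of the endoplasmic reticulum, and Tapbp (tapasin) tethers it to the empty class I molecule. Psmb8, Psmb9 and Psmb10 encode the catalytic subunits of the immunoproteasome, and Nlrc5 encodes the transactivator of class I genes.

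In every nucleated cell, peptides cut by the proteasome are pumped by the transporter into the endoplasmic reticulum, loaded onto a heavy chain with its light chain, and shown to CD8+ T cells. Interferons raise the whole pathway and exchange the constitutive catalytic subunits Psmb5, Psmb6 and Psmb7 for Psmb8, Psmb9 and Psmb10 in newly built proteasomes. Endothelial cells line all vessels and therefore meet circulating T cells before other tissue cells do.

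The study compared MLECs of mice lacking the zinc finger transcription factors Sp1 and Sp3 in the endothelium (dKO) with MLECs of control littermates (CTR), with 6 RNA-seq libraries in each group. The dKO mice were VE-CAD-CreERT2+/Sp1 fl/fl/Sp3 fl/fl and the CTR mice were VE-CAD-CreERT2-/Sp1 fl/fl/Sp3 fl/fl, so that floxed alleles were carried by both groups and Cre by the dKO mice alone. Tamoxifen was given to both groups on 5 consecutive days. The animals of the study were males aged 6 to 8 weeks, Cre was driven by the VE-cadherin promoter, and the genetic background of these lines is not given in the sources used here. The sample labels give the CTR genotype as WT. Cells were pulled from digested lungs with beads against CD31, grown to confluency and selected again on ICAM2, and neither the number of mice behind a library nor whether the libraries came from separate cultures is given. The p-values below therefore measure the spread between these libraries, which may be partly technical.

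Values are FPKM, fragments divided by gene length and by the total of the library, as deposited. The gene lengths used are not given in the sources used here, so levels of different genes are compared only as deposited. CTR libraries held 16548710 to 17465885 fragments on genes and dKO libraries 15522370 to 17937491. Sp1 was 19.4 to 23.7 FPKM in CTR and 8.42 to 12.1 FPKM in dKO, with a log2 fold change of −0.95 (SE 0.09, adjusted p = 5.68e-06 from limma). The targeted gene was thus lower in each dKO library than in each CTR library. Sp3 was 24.2 to 31.1 FPKM in CTR and 22.5 to 26.9 FPKM in dKO, and its log2 fold change of −0.14 (SE 0.07, adjusted p = 0.0902 from limma) did not pass the test. The values cover whole genes and do not separate the deleted exons.

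Of 12 endothelial markers, all were measured above the low-value filter and 11 were called higher in dKO, beside 20.4% of all genes tested. In Cdh5, the gene of VE-cadherin, the CTR mean was 88.9 ± 16.1 FPKM (SD, n = 6) and the dKO mean 140.3 ± 17.1 FPKM (SD, n = 6). Transcripts of other cells were also abundant in these cultures, among them the fibroblast collagen gene Col1a1 at 1173 ± 65.1 FPKM (SD, n = 6) in CTR and the macrophage lysozyme gene Lyz2 at 746 ± 159.6 FPKM (SD, n = 6). Fewer cells of a type and less RNA per cell cannot be told apart in bulk libraries.

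Upstream sequences are shown for the class I chains and for the gene pair Tap1 and Psmb9, whose transcripts rose together and whose starts adjoin. RefSeq (GRCm38.p6) windows were found for 8 of the 10 genes, and Tap2 and Nlrc5 had none. Each run below holds the 250 bases before the annotated start, 5′ to 3′ on the strand of the gene. Capitals mark the core of the interferon regulatory factor element (AANNGAAA), the core of the NF-kB element (GGGNNTTNC) and the GC box that Sp1 and Sp3 bind (GGGCGG), each on either strand.
H2-K1, chr17:34000348-34000597, minus strand: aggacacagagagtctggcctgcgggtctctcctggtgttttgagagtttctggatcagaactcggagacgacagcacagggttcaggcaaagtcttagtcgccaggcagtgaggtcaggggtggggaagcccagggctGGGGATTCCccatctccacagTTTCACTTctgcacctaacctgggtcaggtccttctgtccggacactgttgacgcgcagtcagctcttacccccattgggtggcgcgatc
H2-D1, chr17:35262844-35263093, plus strand: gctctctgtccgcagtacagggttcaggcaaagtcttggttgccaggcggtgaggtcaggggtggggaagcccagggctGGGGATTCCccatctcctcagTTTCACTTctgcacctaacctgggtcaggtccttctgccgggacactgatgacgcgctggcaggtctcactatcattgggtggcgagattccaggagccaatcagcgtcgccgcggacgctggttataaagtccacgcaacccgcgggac
B2m, chr2:122147437-122147686, plus strand: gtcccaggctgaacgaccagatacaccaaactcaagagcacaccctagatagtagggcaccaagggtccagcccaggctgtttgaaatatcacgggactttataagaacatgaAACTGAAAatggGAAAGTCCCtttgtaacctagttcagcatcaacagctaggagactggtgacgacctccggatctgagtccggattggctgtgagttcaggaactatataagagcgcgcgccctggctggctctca
Tap1, chr17:34187306-34187555, plus strand: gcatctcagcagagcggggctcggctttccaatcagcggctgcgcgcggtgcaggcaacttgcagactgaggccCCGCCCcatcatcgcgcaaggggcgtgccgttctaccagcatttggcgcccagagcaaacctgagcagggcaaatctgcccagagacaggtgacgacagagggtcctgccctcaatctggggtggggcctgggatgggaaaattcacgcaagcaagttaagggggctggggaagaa
Psmb9, chr17:34187331-34187580, minus strand: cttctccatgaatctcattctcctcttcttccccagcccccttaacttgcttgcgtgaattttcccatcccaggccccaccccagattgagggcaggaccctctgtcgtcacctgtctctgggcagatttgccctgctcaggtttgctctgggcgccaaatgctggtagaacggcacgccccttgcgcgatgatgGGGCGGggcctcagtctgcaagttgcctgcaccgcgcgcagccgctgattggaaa

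The interferon regulatory factor core and the NF-kB core stood in the windows of H2-K1, H2-D1 and B2m and in none of the other 5. Over the 27025 RefSeq windows of the same length, 21.6% held the first and 13.0% the second. H2-K1 had them at bases −90 to −83 and −111 to −103, and in H2-D1 the same letters, TTTCACTT and GGGGATTCC, stood 60 bases further upstream. A GC box was present in the windows of Tap1, Tapbp and Psmb9, against 32.9% of all windows, and that of Tap1 at −176 to −171 is the same site as that of Psmb9 at −55 to −50. The Tap1 and Psmb9 windows are opposite strands of 225 common bases. The Y box (CCAAT) was found in 6 of the 8 windows (34.5% of all), the cAMP response core (TGACG) in 5 (17.9% of all), and a gamma-activated site (TTCNNNGAA) in that of Psmb8 (7.18% of all). These matches are descriptions of letters in short windows.

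All 10 genes were higher in dKO MLECs than in CTR MLECs at an adjusted p under 0.05 from limma, with log2 fold changes from 0.48 for Tap2 to 1.97 for B2m and group means 1.52-fold to 4.75-fold apart. Of the 12467 genes tested, 20.4% were called higher and 32.6% lower. These were 2549 and 4065 genes, which became 3176 and 3061 when libraries were scaled by the median of ratios. The median log2 fold change of the 10 genes was 1.11 and that of all genes tested −0.10. Nlrc5 passed the low-value filter through its dKO libraries alone, and with no filter 10 of 10 were again called higher, against 10.4% of all 28689 genes. In 9 of the 10, all dKO libraries lay above all CTR libraries, as in 11.3% of the genes tested, and Psmb10 was the exception. Fold changes are on the log2(FPKM + 1) scale, which understates the change of low genes.

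**Figure D1:**
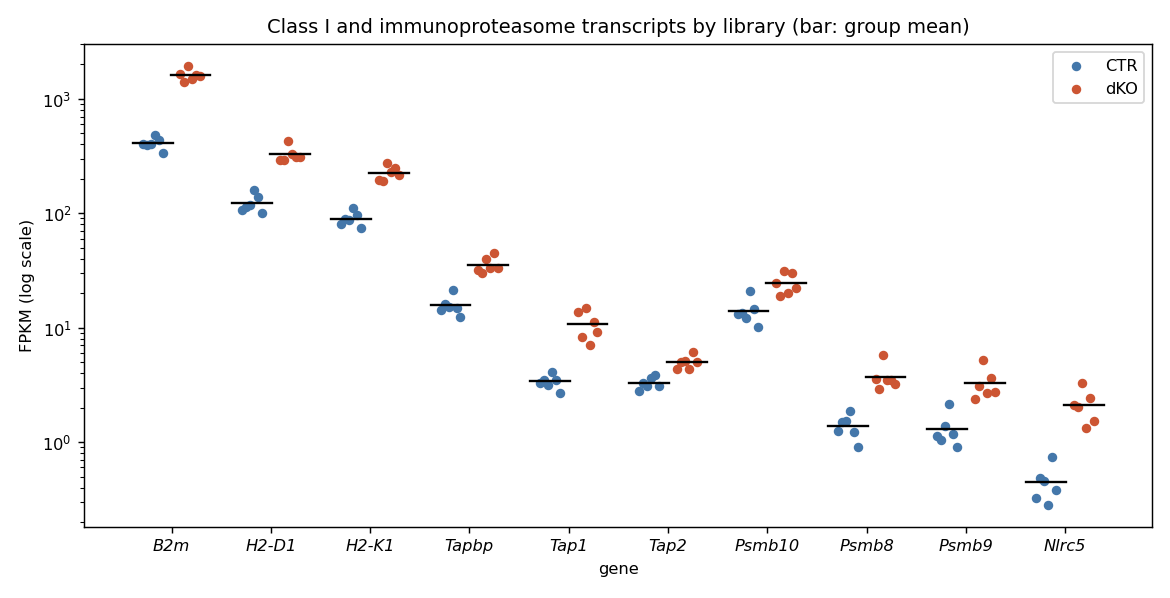
FPKM of the 10 genes in each library on a log axis, with 6 CTR and 6 dKO points per gene and a bar at the group mean. The points of the groups are separate in every gene other than Psmb10, where the highest CTR library (20.8 FPKM) lies above the lowest dKO library (19.0 FPKM).

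B2m was the most abundant of the 10 in both groups and had the largest log2 fold change. It ranged from 335 to 484 FPKM with a median of 402 in CTR, and from 1389.5 to 1938 FPKM with a median of 1609 in dKO. The lowest dKO library thus lay far above the highest CTR library. The CTR mean was 409 ± 49.4 FPKM (SD, n = 6) and the dKO mean 1609.5 ± 187 FPKM (SD, n = 6), a log2 fold change of 1.97 (SE 0.10, adjusted p = 6.88e-08 from limma). B2m (ENSMUSG00000060802) lies on chromosome 2 from 121977957 to 121983594 in GRCm39, and was the single gene of the 10 past the log2 fold change of 1.5 that the study used as a threshold, which 1.43% of the genes tested passed in this direction. This count depends on the pseudocount of 1, and it was 3 with pseudocounts of 0.1 and 0.01 and with limma-voom, where Tap1 and Nlrc5 also passed, and 2 after rescaling to TPM. The study put its threshold on fold changes from DESeq2, a scale unlike the one used here. A figure legend of the study words the cut as a 1.5-fold change instead. The count here is therefore not one by the study's own criterion.

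The classical heavy chains rose less than their light chain. H2-D1 (ENSMUSG00000073411, chromosome 17, 35481691 to 35486475) was 101 to 160.2 FPKM in CTR, with a median of 116, and 291 to 431 FPKM in dKO, with a median of 309.9. Its log2 fold change was 1.41 (SE 0.12, adjusted p = 3.07e-06 from limma). The groups did not overlap, and dKO replicate 3 stood above the other dKO libraries, which reached 327 FPKM. H2-K1 (ENSMUSG00000061232, chromosome 17, 34214987 to 34219321) was 74.2 to 111 FPKM in CTR, with a median of 88.0, and 191 to 277 FPKM in dKO, with a median of 221. Its groups did not overlap either, and its log2 fold change was 1.33 (SE 0.11, adjusted p = 2e-06 from limma). Of 1968 stretches of 150 bases in the H2-D1 transcript, 35 (1.78%) also occur in H2-Q1, which was near 0 in these cells, and the transcripts of the other 9 genes shared none with another gene.

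The ratio of heavy chain to light chain transcripts fell in dKO MLECs. H2-K1 and H2-D1 summed were 0.468 to 0.56 of B2m in CTR and 0.298 to 0.377 in dKO. Every dKO library was below every CTR library. The mean ratio was 0.518 ± 0.0305 (SD, n = 6) in CTR and 0.344 ± 0.0276 (SD, n = 6) in dKO, a log2 difference of −0.59 (two-sided exact permutation test over 924 splits, p = 0.00216, the smallest they can give). A ratio within a library is not changed by the scaling of that library.

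The transporter genes had unequal FPKM in dKO MLECs and near equal FPKM in CTR MLECs. Tap1 (ENSMUSG00000037321, chromosome 17, 34405996 to 34416199) was 2.7 to 4.14 FPKM in CTR, with a median of 3.4, and 7.07 to 14.8 FPKM in dKO, with a median of 10.2. The log2 fold change was 1.38 (SE 0.15, adjusted p = 1.55e-05 from limma), without overlap between the groups. Tap2 (ENSMUSG00000024339, chromosome 17, 34422501 to 34435829), the partner in the same transporter, was 2.79 to 3.86 FPKM in CTR, with a median of 3.21, and 4.33 to 6.12 FPKM in dKO, with a median of 5.05. Its groups were separate as well, and its log2 fold change of 0.48 (SE 0.09, adjusted p = 0.000476 from limma) was the smallest of the 10. Tap1 over Tap2 was 0.87 to 1.19 in CTR and 1.62 to 3.13 in dKO, a ratio that was chosen after the values were seen and was not tested. It was highest in dKO replicates 1 and 3. The near equality in CTR depends on the gene lengths behind the deposited values. Over the CTR libraries Tap1 held 1903 fragments and Tap2 1279, on annotated transcripts of 3105 and 3976 bases.

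Tapbp (ENSMUSG00000024308, chromosome 17, 34134873 to 34148267), whose protein bridges transporter and heavy chain, was 12.4 to 21.4 FPKM in CTR, with a median of 15.0, and 30.3 to 45.1 FPKM in dKO, with a median of 33.2. No dKO library overlapped with the CTR range. The log2 fold change was 1.14 (SE 0.12, adjusted p = 1.31e-05 from limma). The gene model of Tapbp shares 3422 bases with that of Zbtb22 on the same strand, and Zbtb22 was 11.7 FPKM in CTR and 11.8 FPKM in dKO.

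All 3 immunoproteasome subunits were higher in dKO MLECs, at very different levels. Psmb10 (ENSMUSG00000031897, chromosome 8, 106662362 to 106665077) was 10.2 to 20.8 FPKM in CTR, with a median of 13.3, and 19.0 to 31.2 FPKM in dKO, with a median of 23.3. CTR replicate 4 lay above the lowest 2 dKO libraries. The log2 fold change of Psmb10 was 0.77 (SE 0.16, adjusted p = 0.00138 from limma).

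Psmb8 (ENSMUSG00000024338, chromosome 17, 34416690 to 34420428), which takes the place of Psmb5, was 0.902 to 1.88 FPKM in CTR, with a median of 1.36, and 2.92 to 5.76 FPKM in dKO, with a median of 3.49. Its log2 fold change was 0.98 (SE 0.13, adjusted p = 6.35e-05 from limma). The groups were separate, and dKO replicate 3 was far above the other dKO libraries, which ended at 3.56 FPKM. Psmb9 (ENSMUSG00000096727, chromosome 17, 34400960 to 34406738), which takes the place of Psmb6, was 0.899 to 2.16 FPKM in CTR, with a median of 1.15, and 2.38 to 5.18 FPKM in dKO, with a median of 2.91. Its log2 fold change was 0.89 (SE 0.15, adjusted p = 0.000381 from limma), and CTR replicate 4 stood apart from the other CTR libraries, which reached 1.37 FPKM. These low levels rest on 386 fragments for Psmb8 and 487 for Psmb9 over the 6 CTR libraries, and on 1053 and 1244 over the dKO libraries.

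Tap1, Tap2, Psmb8 and Psmb9 lie together within 34.9 kb of chromosome 17, from 34400960 to 34435829 in GRCm39. The gene models of Tap1 and Psmb9 overlap by 743 bases on opposite strands, and the strand setting of the counting is not given in the sources used here, so fragments in that overlap cannot be assigned to either gene with certainty. The same limit holds for B2m, which overlaps Patl2 on the opposite strand over 5638 bases, and Psmb10, which overlaps Gm16156 over 2716 bases. Tap2, Psmb8 and Nlrc5 overlap noncoding genes on the opposite strand. These other genes averaged at most 0.188 FPKM in either group.

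None of the constitutive subunits was called higher in the test that called the 10 genes, also at an unadjusted p under 0.05 from limma or with limma-voom. Psmb5 was 34.8 to 54.9 FPKM in CTR, with a median of 47.9, and 22.7 to 38.3 FPKM in dKO, with a median of 27.8. It fell by 0.66 on the log2 scale (SE 0.14, adjusted p = 0.00141 from limma), with overlap between the groups. Psmb6 had a CTR mean of 52.1 ± 3.87 FPKM (SD, n = 6) and a dKO mean of 56.3 ± 7.25 FPKM (SD, n = 6) (log2 fold change 0.10, SE 0.08, adjusted p = 0.32 from limma), and Psmb7 had means of 17.8 ± 1.88 and 21.6 ± 4.95 FPKM (log2 fold change 0.25, SE 0.12, adjusted p = 0.109 from limma). Neither of these passed the test, but Psmb7 was called higher with median-of-ratios scaling and without dKO replicate 4.

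**Figure D2:**
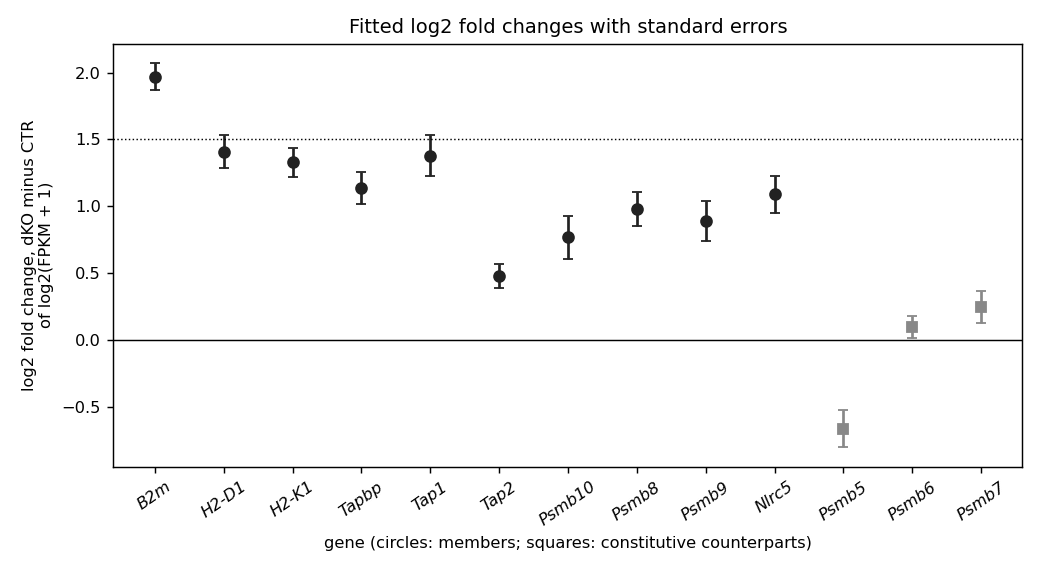
Fitted log2 fold changes (dKO minus CTR, log2(FPKM + 1) scale) with standard errors for the 10 genes (circles) and the 3 constitutive subunits (squares), with a dotted line at 1.5. The 10 genes lie between 0.48 and 1.97, and Psmb5, Psmb6 and Psmb7 lie at −0.66, 0.10 and 0.25.

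The transcript ratio of each immunoproteasome subunit to the subunit it replaces was compared by exact two-sided permutation tests, with p adjusted over these 3 ratios. Psmb8 over Psmb5 was 0.0164 to 0.0541 in CTR and 0.0839 to 0.241 in dKO. The groups did not overlap, and the log2 difference of 2.12 (4.36-fold) had an adjusted p of 0.00649 in the exact permutation test. Of the summed FPKM of Psmb8 and Psmb5, Psmb8 made up 3.04% ± 1.21 (SD, n = 6) in CTR and 11.8% ± 4.14 (SD, n = 6) in dKO. This share depends on the gene lengths behind the deposited values. Psmb8 held 386 fragments and Psmb5 4240 over the CTR libraries, and 1053 and 2653 over the dKO libraries.

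Psmb9 over Psmb6 was 0.0154 to 0.044 in CTR and 0.0349 to 0.0942 in dKO, with 5 of the 6 dKO libraries above all CTR libraries. Its log2 difference was 1.25 (2.38-fold, exact permutation test, adjusted p = 0.00649). Psmb10 over Psmb7 was 0.545 to 1.32 in CTR and 0.796 to 1.58 in dKO, with 2 of the 6 dKO libraries above all CTR libraries. Its log2 difference of 0.55 (1.47-fold, exact permutation test, adjusted p = 0.0498) was just past the threshold and was lost in 12 of 15 alternatives. In deposited FPKM, Psmb10 was thus close to Psmb7 in both groups, while Psmb8 and Psmb9 stayed below Psmb5 and Psmb6. In fragments Psmb10 was below Psmb7, with 2461 against 6231 over the CTR libraries and 4293 against 7517 over the dKO libraries. Their annotated transcripts measure 1312 and 1160 bases, so the nearness in FPKM depends on the gene lengths behind the values. The change of a ratio between the groups does not depend on these lengths.

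**Figure D3:**
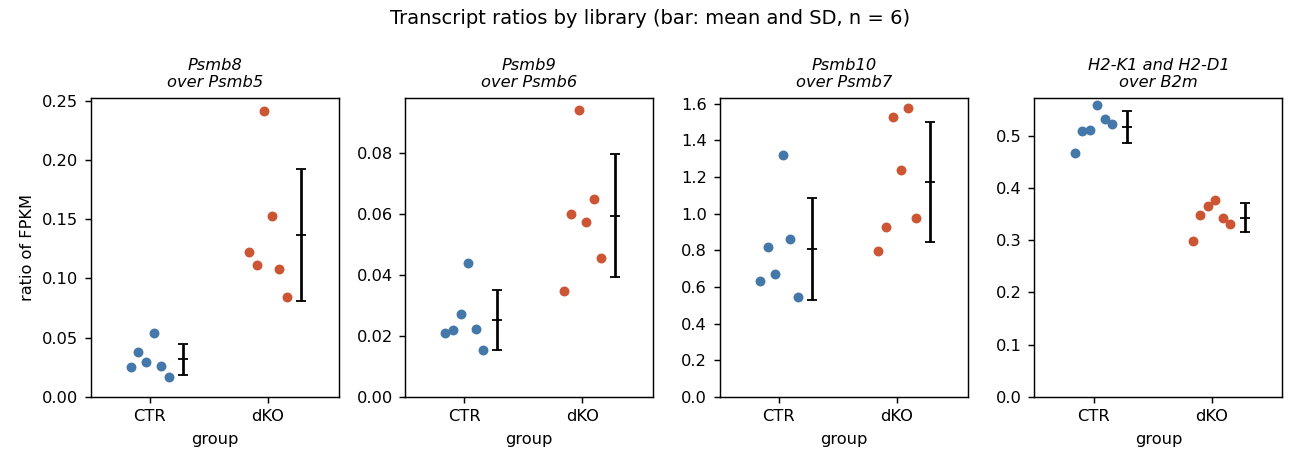
FPKM ratios in each library for the 3 immunoproteasome subunits over the subunits they replace and for the heavy chains over B2m, each on an axis that starts at 0, with the mean and SD of 6 libraries beside the points. The dKO libraries lie above all CTR libraries for Psmb8 over Psmb5 and below all of them for the heavy chains over B2m, and the groups overlap in the other 2 ratios.

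Nlrc5 (ENSMUSG00000074151, chromosome 8, 95160984 to 95253900), the transactivator that drives class I genes, had the lowest level of the 10 in CTR. It was 0.283 to 0.743 FPKM in CTR, with a median of 0.418, and 1.34 to 3.26 FPKM in dKO, with a median of 2.07. The ranges were separate. Its log2 fold change was 1.09 (SE 0.14, adjusted p = 3.69e-05 from limma), and the group means were 4.75-fold apart, the widest of the 10 on the plain scale. The CTR libraries held 42 to 108 Nlrc5 fragments each and the dKO libraries 204 to 486.

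In order of deposited FPKM, B2m came first in CTR, followed by H2-D1 and H2-K1, then Tapbp and Psmb10. Then came Tap1 and Tap2, then Psmb8 and Psmb9, and Nlrc5 last. Genes joined in this order by "and" had overlapping ranges, and the steps between these groups did not overlap. In dKO the order of the first 6 was the same apart from H2-D1, which lay above H2-K1 without overlap, and Tap1, which lay above Tap2 without overlap. The ranges of Tap2, Psmb8, Psmb9 and Nlrc5 overlapped from neighbour to neighbour there.

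Most of the 10 genes had their highest or lowest value in the same libraries within each group, but not all. CTR replicate 4 was the highest of the CTR libraries in 8 of the 10 genes, and CTR replicate 6 the lowest in 8. Nlrc5 went the other way and was lowest in CTR replicate 4 (0.283 FPKM). Among the dKO libraries, replicate 3 was highest in 8 and replicate 5 in the other 2, Tap2 and Tapbp. The lowest values were divided, with 5 in dKO replicate 2, 3 in replicate 1 and 2 in replicate 4. In replicate 1, H2-D1 (291 FPKM), Tap2 (4.33 FPKM) and Psmb9 (2.38 FPKM) were lowest, but Tap1 (13.6 FPKM) was next to highest. The mean log2 shift of the 10 genes over the CTR mean was 1.51 in dKO replicate 3, 1.28 in replicate 5 and 0.97 to 1.09 in the other 4. Without dKO replicate 3, all 10 genes were still called, with log2 fold changes such as 1.32 for H2-D1, 1.28 for Tap1 and 0.88 for Psmb8.

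Macrophages carry much of this pathway, and their markers were higher in dKO as well. All 10 macrophage markers were called higher (median log2 fold change 1.98), beside 20.4% of all genes tested. None of them was at 0 in either group, but Fcgr1 passed the low-value filter through its dKO libraries alone. Their summed level was 707 to 1237 FPKM in CTR, lowest in replicate 6 and highest in replicate 4, and 2316 to 5284 FPKM in dKO, highest in replicate 3. CTR replicate 4 was also highest in the endothelial (344 FPKM), leukocyte (10.9 FPKM) and lung epithelial (556 FPKM) sums, but not in the fibroblast and mesothelial sums. CTR replicate 6 was lowest in no other marker sum. The leukocyte sum, too, was highest in dKO replicate 3 (19.8 FPKM) among the dKO libraries. In dKO replicate 5, which had the next to highest shift of the 10 genes, the macrophage sum was the lowest of the dKO libraries. Lyz2 alone made up most of this sum in every library, with 1415 of 2316 FPKM in dKO replicate 5. The sum therefore says little about the less abundant markers. The part of macrophage transcripts in the rise of the 10 genes was not tested.

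Other markers differed too, where 20.4% of all genes tested were called higher and 32.6% lower. Endothelial markers summed to 221 to 344 FPKM in CTR and 403 to 550.1 FPKM in dKO, with a median log2 fold change of 0.83. Mesothelial markers were called higher in 5 of 6 (median 1.28), with sums of 28.8 to 38.6 FPKM in CTR and 66.3 to 146 FPKM in dKO. Fibroblast markers, whose sums were 2155 to 2724 FPKM in CTR and 847 to 1671 FPKM in dKO, were called lower in 4 of 7 and higher in 1 (median −0.77).

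Of 12 leukocyte markers, 2 passed the low-value filter and both were called higher, beside 20.4% of all genes tested. The leukocyte sums were 6.39 to 10.9 FPKM in CTR and 14.8 to 19.8 FPKM in dKO. With no filter, 3 of these markers were called higher, beside 10.4% of all genes. The T cell markers Cd3e, Cd3d and Cd8a were listed at 0 in all CTR libraries and held 1, 1 and 6 fragments over the 6 dKO libraries. Cd4, which T cells and some macrophages carry, was 0.029 to 0.15 FPKM in CTR and 0.76 to 1.81 FPKM in dKO. Lung epithelial markers were called higher in 2 of 8, beside 20.4% of all genes tested. Their sums were 117 to 556 FPKM in CTR and 214 to 404 FPKM in dKO. The part of these cells in the class I values was not tested.

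**Figure D4:**
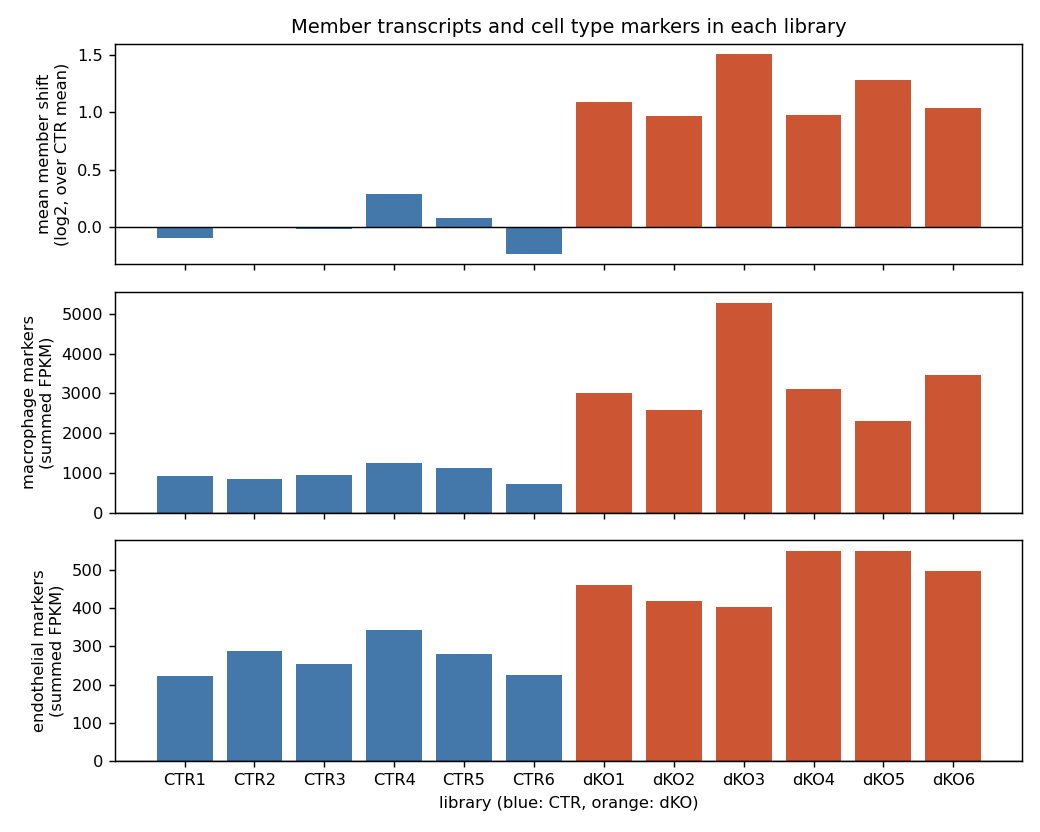
Mean log2 shift of the 10 genes over their CTR mean, summed FPKM of 10 macrophage markers and summed FPKM of 12 endothelial markers in each of the 12 libraries, as bars from 0. In dKO replicate 3 the shift (1.51) and the macrophage sum (5284 FPKM) are the highest, while dKO replicate 5 has the next highest shift (1.28) and the lowest macrophage sum of its group (2316 FPKM). Most of the macrophage sum is Lyz2 in every library.

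Beyond the classical heavy chains, other class I molecules were mostly higher in dKO MLECs. Of 17 further heavy chain and class I-like genes in the table, 12 were tested. Of these, 9 were called higher and 0 lower, beside 20.4% and 32.6% of all genes tested. Their median log2 fold change was 0.90. At an unadjusted p under 0.05 from limma 1 was lower, and 0 were with limma-voom on the genes tested. The count of lower calls was 1 without CTR replicate 6, without dKO replicate 4, with no filter and with limma-voom on all genes. H2-T23 encodes Qa-1, which presents leader peptides to natural killer cell receptors, and was 7.5 to 14.6 FPKM in CTR and 37.3 to 69.4 FPKM in dKO (log2 fold change 1.99, SE 0.17, adjusted p = 2.81e-06 from limma). H2-Q6 was 2.99 to 5.07 FPKM in CTR and 14.5 to 20.3 FPKM in dKO, with a log2 fold change of 1.89 (SE 0.12). H2-Q4 was 3.92 to 6.04 FPKM in CTR and 10.6 to 18.2 FPKM in dKO, with a log2 fold change of 1.40 (SE 0.12). All of these groups were separate.

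H2-M2 had a log2 fold change of 2.22 (SE 0.60, adjusted p = 0.00746 from limma) with 1 library far above the rest. It was 58.7 FPKM in dKO replicate 5, 1.99 to 3.56 FPKM in the other dKO libraries and 0.152 to 0.351 FPKM in CTR. It passed the low-value filter through the dKO libraries alone. The class I-like genes Cd1d1, Fcgrt and Hfe, with log2 fold changes of −0.48, 0.34 and 0.14, did not pass the test. Cd1d1 was called lower without CTR replicate 6 and without dKO replicate 4. Fcgrt was called higher without CTR replicate 4, at 0.46 (adjusted p = 0.0232 from limma). With a block on replicate number, Cd1d1 was called lower and Fcgrt higher.

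The other loading and trimming genes were divided. Of 11, 6 were called higher and 4 lower, beside 20.4% and 32.6% of all genes tested. Their median log2 fold change was 0.28, and with median-of-ratios scaling 7 were called higher and 2 lower. Calr, a chaperone of the loading complex, was 164 to 269 FPKM in CTR and 417 to 645 FPKM in dKO (log2 fold change 1.29, SE 0.14, adjusted p = 1.19e-05 from limma). Pdia3, the disulfide isomerase of that complex, was 139 to 214 FPKM in CTR and 274 to 412 FPKM in dKO (log2 fold change 0.82, SE 0.12). Thop1 and Blmh, cytosolic peptidases, fell by 0.59 and 0.51 on the log2 scale.

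The noncatalytic subunits of the 20S core of the proteasome changed little, while its activators, inhibitors and assembly factors were divided. Among 11 tested subunits of the 20S core other than the catalytic ones, 1 was called higher, Psma6 at 0.27, and 1 lower, Psma5 at −0.16, and their median log2 fold change was −0.03. The call of Psma5 was lost without any of CTR replicates 1, 3 and 6 or dKO replicates 2 to 5 (adjusted p of 0.0544 to 0.0784 from limma), and the counts were 3 and 0 with median-of-ratios scaling. Without CTR replicate 1, Psma2 was also called higher, at 0.22. Of 9 tested activators, inhibitors and assembly factors, 3 were called higher and 4 lower (median −0.17), beside 20.4% and 32.6% of all genes tested. Psme1 and Psme2, the subunits of the interferon-inducible PA28 activator, rose by 0.55 (SE 0.09) and 0.41 (SE 0.09), and Pomp, which matures new proteasomes, by 0.43 (SE 0.09). The assembly chaperones Psmg2 and Psmg1 fell by 0.77 and 0.58 on the log2 scale.

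Partners of Nlrc5 on class I promoters were lower or not called. Of 8 tested, 0 were called higher and 5 lower, beside 20.4% and 32.6% of all genes tested. Their median log2 fold change was −0.27, and that of all genes tested −0.10. With median-of-ratios scaling or quantile normalization, 1 was called higher. At an unadjusted p under 0.05 from limma, and with limma-voom, 0 were higher. Nfyb, a subunit of the factor that binds the Y box, fell by 0.52 on the log2 scale (SE 0.08, adjusted p = 0.000139 from limma), Atf1 by 0.46 (SE 0.07), Creb1 by 0.42 (SE 0.07) and Rfx5 by 0.31 (SE 0.12). The call of Rfx5 was lost without any of CTR replicates 1, 2, 3 and 5 or dKO replicates 1, 3, 4 and 6 (adjusted p of 0.0552 to 0.0863 from limma).

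Regulators downstream of interferon were higher. Of 11 tested interferon and NF-kB regulators, 7 were called higher and 1 lower, beside 20.4% and 32.6% of all genes tested. Their median log2 fold change was 0.53. Without CTR replicate 1, after rescaling to TPM, with no filter and with limma-voom on all genes, 2 were lower. Irf7, the interferon-induced regulator of type I interferon genes, was 1.77 to 3.41 FPKM in CTR and 8.0 to 36.6 FPKM in dKO (log2 fold change 2.13, SE 0.30, adjusted p = 7.95e-05 from limma). Stat2 and Irf9, which carry the interferon signal to the nucleus, had log2 fold changes of 1.25 (SE 0.15) and 0.71 (SE 0.12). The dKO and CTR libraries were separate in these 3 genes. Irf1, an activator of class I promoters, was 6.19 FPKM in CTR and 9.87 FPKM in dKO on average, with overlap between the groups and its highest value, 15.7 FPKM, in dKO replicate 5.

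Among 10 receptors and signalling genes, 4 were called higher and 2 lower (median 0.05), beside 20.4% and 32.6% of all genes tested. Usp18, an interferon-induced brake on the type I receptor, was 0.679 to 1.45 FPKM in CTR and 5.14 to 19.1 FPKM in dKO (log2 fold change 2.37, SE 0.27, adjusted p = 2.13e-05 from limma). Ifngr2, a chain of the interferon gamma receptor, rose by 0.67 (SE 0.08), while Jak2 and Socs3 fell by 0.71 and 0.57 on the log2 scale. Of 8 interferon and cytokine ligands, Ifnb1 and Tnf were in the table and neither passed the low-value filter. Tnf reached 7.53 FPKM in dKO replicate 5, where the other 5 dKO libraries ended at 0.452 FPKM and the CTR libraries at 0.466 FPKM.

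Class II presentation genes and ligands of checkpoint or natural killer receptors were the last groups. All 7 class II genes tested were called higher (median log2 fold change 0.86), beside 20.4% of all genes tested. Ctss, the protease that trims the invariant chain, was 84.9 to 150.4 FPKM in CTR and 390.5 to 1013 FPKM in dKO (log2 fold change 2.40, SE 0.20, adjusted p = 2.42e-06 from limma). H2-DMa, H2-DMb1 and H2-Ab1 had log2 fold changes of 1.06, 1.03 and 0.86 (SE 0.15, 0.10 and 0.10). Of 3 tested ligands, Ulbp1 and Cd274 (the checkpoint ligand PD-L1) were called higher at 0.67 (SE 0.19) and 0.66 (SE 0.22), and Raet1e, at 0.18 (SE 0.22), was not called. The call of Cd274 was lost without CTR replicate 1 or 2 or dKO replicate 3 or 5 (adjusted p of 0.0507 to 0.0563 from limma).

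The 5 genes whose log2 values over the 12 libraries lay closest to the mean course of the 10 were Cyfip2, Ctsz, Il18bp, Trim12c and Gusb. The root mean square difference was 0.094, 0.095, 0.095, 0.121 and 0.128. Their log2 fold changes were 1.14, 1.10, 1.14, 1.04 and 1.18 (SE 0.11, 0.09, 0.13, 0.12 and 0.09). Ctsz and Gusb encode lysosomal hydrolases, and Il18bp encodes a secreted protein that binds interleukin-18. Nothing was tested on these genes beyond the likeness by which they were picked.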

How the data were processed

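RNA of MLECs was sequenced as paired reads on a NovaSeq, in 6 CTR and 6 dKO libraries. According to the study's methods the authors used Trimmomatic for trimming and STAR for alignment to mm39, and aligned the uniquely mapped reads again. The sample labels speak of another library kit and of retinas, although they name lung as the tissue. The authors deposited FPKM values for 28689 genes in 12 columns, and the counting program, annotation and strand setting are not given in the sources used here. The CTR columns were matched to the control samples by name. The other columns carry a name short for tamoxifen, which both groups received, and no label ties that name to the knockout. They were taken as dKO because they are the only columns beside CTR and the knockout is the only other group.

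The members and lists were chosen with earlier results of these data known. FPKM values were tested as log2(FPKM + 1), with a pseudocount of 1, by limma 3.58.1 in R 4.3.3 (lmFit and eBayes with a trend, no covariate) over the 12467 genes that reached 1 FPKM in 6 or more of 12 libraries, with Benjamini-Hochberg adjustment. Ratios were compared by exact two-sided permutation tests on mean log2 ratios over 924 splits. Whole fragments were recovered for 100% of genes (tolerance 0.02) and served for depth and limma-voom alone. On a 2 kb gene, 1 fragment equalled 0.0279 to 0.0322 FPKM. Positions are from GENCODE on GRCm39 (96.6% of genes matched, 983 not), and upstream sequences from RefSeq. The fit was tested on simulated data. Named genes were the 10 members, Sp1, Sp3 and the 3 constitutive subunits, the 4 tested genes of largest absolute log2 fold change in each pathway list, the most abundant gene of each marker list and the 5 genes most like the members, and other genes named were chosen after their values were seen. A gene that this rule selects is not reported here. Alternatives were other pseudocounts, filters and scalings, robust eBayes, limma-voom, a block on replicate number, and fits without each library in turn. Python 3.11.15, NumPy 2.4.6, pandas 2.3.3 and Matplotlib 3.10.9 were used.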

Additional observations from a re-analysis of the deposited data

Results flagged for a closer look

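In 17 of 130 groups of 6 values, 1 library stood far from the other 5. The rule flags about 1 group in 20, or 6.5, where values are normally distributed and not selected. FPKM of related genes, many picked by their values, do not meet this, so no excess is read from the count. Of the 17 groups, 9 were in dKO replicate 3. They were H2-D1 at 431 FPKM (291 to 327 in the others), Psmb8 at 5.76 FPKM (2.92 to 3.56), H2-T23 at 69.4 FPKM (37.3 to 43.2), Pdia3 at 412 FPKM (274 to 308), Ctss at 1013 FPKM (390.5 to 617), H2-DMb1 at 13.4 FPKM (9.54 to 11.0), Lyz2 at 2953 FPKM (1336 to 1901), Il18bp at 7.68 FPKM (3.89 to 5.17) and Trim12c at 13.2 FPKM (7.69 to 9.25). The summed macrophage markers of this library were also the highest, and their part in these values was not tested. Il18bp and Trim12c had been picked for their likeness to the 10 genes over the same libraries, so their high values there are no separate finding.

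In dKO replicate 5, H2-M2 was 58.7 FPKM (1.99 to 3.56 in the others), Jak2 was 25.5 FPKM (17.5 to 20.3) and Ifngr2 was 40.0 FPKM (28.7 to 32.0). This library also held 7.53 FPKM of Tnf.

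Among the CTR libraries, replicate 4 stood apart in Psmb9 at 2.16 FPKM (0.899 to 1.37 in the others) and in Jak2 at 24.4 FPKM (32.4 to 36.1). Replicate 1 did so in Psma2 at 33.6 FPKM (26.5 to 28.9) and Raet1e at 4.86 FPKM (1.92 to 2.83), and replicate 2 in H2-DMa at 1.23 FPKM (2.04 to 2.51).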

How the results depend on the processing

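All 10 genes were called higher in 22 of 23 alternatives, and 6 were with a filter of at least 5 FPKM, which left 7891 genes to test and the other 4 untested. Leaving out a library gave 10 in each fit. The count past a log2 fold change of 1.5 was 1, also with any library left out, but 3 with pseudocounts of 0.1 and 0.01 and with limma-voom (on the genes tested, and on all genes, the latter chosen after seeing the data), where Tap1 (1.59 to 1.61) and Nlrc5 (2.02 to 2.25) joined B2m. It was 2 after rescaling to TPM. Each gene kept its direction and its call in every alternative that could test it. The ratio of Psmb10 to Psmb7 lost its call with a pseudocount of 1 in both terms (0.52, exact permutation p = 0.0519), with medians of the log2 ratios (0.57, p = 0.11, exact permutation test) and with the replicate block (0.55, p = 0.0625, exact sign flips). Leaving out a library gave 0.45, without CTR replicate 6, to 0.71, without CTR replicate 4, and exact permutation p of 0.0152 to 0.104. The other ratios kept their calls in all alternatives. Replicate numbers are shared between groups, but same-numbered libraries did not deviate together in each pair (correlations of −0.108 to 0.565), so the numbers were not taken to pair them, and with the block 2675 genes were higher and 4280 lower. With it, 1 constitutive subunit (Psmb7) and the class I-like gene Fcgrt were called higher. The class I-like gene Cd1d1 and 2 interferon and NF-kB regulators were called lower, and 2 other 20S subunits higher and 2 lower. The median log2 fold change of all genes tested was −0.02 with median-of-ratios scaling, −0.052 with quantile normalization and −0.154 after rescaling to TPM. Depth limits Nlrc5, Psmb8 and Psmb9 most.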
